A study of Mus musculus with 7 samples.

Results

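The genes described here are the embryonic and adult globins, 7 members given by name: the embryonic chains Hbb-y, Hbb-bh1 and Hba-x and the adult chains Hbb-b1, Hbb-b2, Hba-a1 and Hba-a2. Members were taken by symbol from the deposited gene table of 24189 symbols, and entries with the same symbol were summed. Of the 7 members, 6 had at least 1 entry (8 entries in all), and Hbb-b2 had none. Hbb-b1 was chosen by its own readout, a higher value in every mutant library, so its difference between genotypes is given as a description with no test.

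RNA-Seq libraries of whole testes from mouse embryos at E14.5 (C57BL/6 background per the labels) were compared, 3 labelled wild-type and 4 mutant (n = 3 and n = 4). Each library came from the testis pair of 1 embryo. The mutants were homozygous for Glis3 zf5, a deletion reaching over an exon of the zinc finger gene Glis3 in every cell of the animal, so blood cells carried it too; no allele or treatment was shared with the wild-type embryos. Whole testes include the blood in their vessels, and in such bulk samples fewer cells of a type and less RNA per cell cannot be told apart.

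Hemoglobin joins a pair of alpha-type chains to a pair of beta-type chains around heme. In the mouse, primitive red cells arise in the yolk sac and circulate with a nucleus. They make the embryonic chains zeta (Hba-x), epsilon-y (Hbb-y) and beta-h1 (Hbb-bh1). Definitive red cells, which leave the fetal liver from midgestation, make the adult alpha (Hba-a1, Hba-a2) and adult beta chains. The adult chains are not taken here as marks of definitive red cells alone. Both kinds of red cell circulate in midgestation. The alpha-type genes lie together on chromosome 11 and the beta-type genes on chromosome 7, with the embryonic genes upstream of the adult ones in each cluster. Adult beta genes differ between strains: the haplotype of the C57BL/6 reference chromosome holds Hbb-bs and Hbb-bt, and Hbb-b1 and Hbb-b2 are the names used for the adult genes of the other common haplotype.

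Coding sequences are shown first because they set how far reads of one chain can be told from reads of another. In GENCODE M21 (GRCm38), Hbb-bs and Hbb-bt shared 443 of 444 coding bases. They differed by the substitution C417T, counted from 1 at the first base of the start codon of Hbb-bs with the Hbb-bs base first. The stretch around it is given with the differing base in capitals, both on the minus strand, at chr7:103826665-103826722 for Hbb-bs and chr7:103812656-103812713 for Hbb-bt.
Hbb-bs: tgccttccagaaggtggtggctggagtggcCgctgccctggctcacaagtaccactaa
Hbb-bt: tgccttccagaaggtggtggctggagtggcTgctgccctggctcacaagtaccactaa

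The adult alpha genes were as close, with 428 of 429 coding bases shared between Hba-a1 and Hba-a2 and the substitution C381T (counted in the same way, Hba-a1 base first), here at chr11:32284313-32284373 and chr11:32297130-32297190 on the plus strand.
Hba-a1: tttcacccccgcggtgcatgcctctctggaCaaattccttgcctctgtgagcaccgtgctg
Hba-a2: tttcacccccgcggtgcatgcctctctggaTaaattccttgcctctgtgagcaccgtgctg

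The embryonic chains were far from the adult ones and from each other. Hbb-y shared 74.3% and Hbb-bh1 74.1% of coding bases with Hbb-bs, Hbb-y and Hbb-bh1 shared 76.4%, and Hba-x shared 62% with Hba-a1. The longest stretch without a difference was 22 bases between Hbb-y and Hbb-bs and 18 bases between Hba-x and Hba-a1, against 416 bases between Hbb-bs and Hbb-bt. The first 90 coding bases show this, with bases that differ from Hbb-bs in capitals; all were on the minus strand of chromosome 7, at chr7:103827786-103827875, chr7:103853063-103853152 and chr7:103843021-103843110.
Hbb-bs: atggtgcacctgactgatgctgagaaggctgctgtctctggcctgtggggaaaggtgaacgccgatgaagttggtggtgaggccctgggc
Hbb-y: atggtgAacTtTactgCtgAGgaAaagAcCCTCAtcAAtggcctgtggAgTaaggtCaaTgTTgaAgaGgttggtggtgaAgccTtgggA
Hbb-bh1: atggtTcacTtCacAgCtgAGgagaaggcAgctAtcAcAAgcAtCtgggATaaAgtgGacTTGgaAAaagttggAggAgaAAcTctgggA

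For the alpha chains the capitals mark bases that differ from Hba-a1, and the 90 bases lay on the plus strand at chr11:32283707-32283796 and chr11:32276664-32276753.
Hba-a1: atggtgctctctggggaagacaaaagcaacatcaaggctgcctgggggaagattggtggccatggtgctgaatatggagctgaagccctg
Hba-x: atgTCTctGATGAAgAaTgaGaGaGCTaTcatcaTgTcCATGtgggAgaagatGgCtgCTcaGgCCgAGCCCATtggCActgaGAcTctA

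Several entries of the gene table covered the same bases. The Hbb-b1 entry (mm10, chr7:103826532-103827929, minus strand) shared 1397 of its 1398 bases with the Hbb-bs entry (chr7:103826523-103827928, minus strand), so both were values for 1 locus. The RefSeq table of GRCm38.p6 gives the gene number of Hbb-b1 a place that differs from this entry. Hba-a1 and Hba-a2 each had entries at both adult alpha loci, around chr11:32283672-32284493 and chr11:32296489-32297310, and 812 bases were shared at each locus. The values of Hbb-b1 and Hbb-bs, and those of Hba-a1 and Hba-a2, were therefore shares of the same reads as the authors' software divided them. Hbb-bt, at a separate locus, has nearly the same coding sequence as Hbb-bs, and its transcribed sequence outside the coding bases was not compared.

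One library must be named before the results. The FPKM of Glis3 (fragment numbers divided by transcript length and library depth) reached 7.63 and 6.89 in wild-type replicates 1 and 2 but 2.91 in the one labelled wild-type replicate 3, beside 3.86, 3.26, 2.9 and 2.66 for the mutants. The library labelled wild-type replicate 3 thus lay within the mutant range (log2 fold change -0.69, SE 0.28, adjusted p = 0.267 from limma over all 7 libraries), and the differences of the members below are also given without it. In some other genes, named after their values were seen, it lay on the wild-type side of every mutant. Ddx4, a germ cell gene, had 102, 94.7 and 53.1 FPKM in the wild-type and 33.6 to 42.2 FPKM in the mutants. Insl3, a hormone of fetal Leydig cells, had 190, 255 and 199 FPKM in the wild-type and 305 to 389 FPKM in the mutants. Such groups without overlap were found for 2 of 8 germ cell genes listed (mutants lower) and 2 of 6 fetal Leydig cell genes (mutants higher). The shares over all genes tested were 7.6% for lower and 7.3% for higher. In the other genes of both lists the groups overlapped. In Pou5f1, a germ cell gene, the library labelled wild-type replicate 3 had 54.1 FPKM, inside the mutant range of 50 to 62.8 FPKM. For Nanos2, also a germ cell gene, it had 1.06 FPKM, below the mutants (1.81 to 9.63 FPKM). Over the 13977 symbols with a mean of at least 0.5 FPKM, limma on log2(FPKM + 0.5) called 1 gene at an adjusted p under 0.05, which is 0.00715% of those tested. Without the library labelled wild-type replicate 3 it called 722 of 14008 genes, or 5.15%. At an unadjusted p under 0.05 the share was 17%, all 4 mutant libraries lay above all 3 wild-type libraries for 7.3% of the genes and below for 7.6%, and the median log2 fold change of all genes was 0.01. Of the 6 members found, 5 passed the filter, and none of the 4 that were tested (Hbb-y, Hbb-bh1, Hba-x and Hba-a2) was called or had an unadjusted p under 0.05 over all 7 libraries. FPKM is per length, so levels of different genes are compared on this scale.

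Hbb-y, the main embryonic beta chain, was among the most abundant transcripts of the testis. Its FPKM was 1226, 707 and 3188 in wild-type replicates 1 to 3 and 708, 992, 1812 and 1221 in mutant replicates 1 to 4. The library labelled wild-type replicate 3 had the highest value and wild-type replicate 2 the lowest, with mutant replicate 1 next to it and the other mutants in between. Among all symbols, Hbb-y ranked between place 15 and place 87 in a library. The means were 1707 ± 1309 FPKM in wild-type and 1183 ± 469 FPKM in mutant testes (SD, n = 3 and n = 4), and limma gave a log2 fold change of -0.33 (SE 0.49, adjusted p = 0.763). When the library labelled wild-type replicate 3 was dropped, this turned to 0.26 (adjusted p = 0.722 from limma), so even the direction rested on that library.

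Hbb-bh1, the beta chain that precedes epsilon-y in the yolk sac, was far lower. Its FPKM was 12.1, 11.4 and 34.4 in the wild-type and 18.4, 30.4, 14 and 21.7 in the mutants. The library labelled wild-type replicate 3 was again the highest and wild-type replicate 2 the lowest, and the groups overlapped. By limma it differed by 0.26 on the log2 scale (SE 0.39, adjusted p = 0.762), and by 0.77 without the library labelled wild-type replicate 3 (adjusted p = 0.127). The ratio of Hbb-y to Hbb-bh1 FPKM was 101, 62.1 and 92.8 in the wild-type and 38.4, 32.6, 129 and 56.3 in the mutants. Mutant replicates 1, 2 and 4 lay below all wild-type libraries and mutant replicate 3 above them. On the log2 scale the mean difference was -0.6 (two-sided exact permutation test, p = 0.343) and it was -0.53 (exact permutation p = 0.533) after dropping the library labelled wild-type replicate 3.

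Hba-x, the zeta chain that pairs with the embryonic beta chains, had 32.4, 13.8 and 62.7 FPKM in the wild-type and 15.1, 23.2, 26 and 20.4 FPKM in the mutants. As for both embryonic beta chains, wild-type replicate 2 was lowest and the library labelled wild-type replicate 3 highest, with the mutants in a narrower band between them. The means were 36.3 ± 24.7 and 21.2 ± 4.68 FPKM (SD, n = 3 and n = 4). Its log2 fold change by limma, -0.54 (SE 0.43, adjusted p = 0.544), was -0.03 once that library was left out (adjusted p = 0.968) and -1.1 once wild-type replicate 2 was left out (adjusted p = 0.169).

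Hbb-y and Hba-x varied together from library to library. The SD over the 7 libraries was 0.77 for log2 Hbb-y and 0.74 for log2 Hba-x, but 0.29 for the log2 ratio of these genes. Hbb-bh1 followed less closely, with an SD of 0.74 for its log2 ratio to Hbb-y and 0.69 for that to Hba-x. Embryonic beta chains (Hbb-y and Hbb-bh1 summed) stood at 38.2 to 70.1 times the FPKM of Hba-x. These genes share library, depth and any blood in the sample, and the SD is a description.

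The adult alpha chains varied less than the other abundant globins, with an SD over the 7 libraries of 0.26 for log2 Hba-a2. Nearly all of their FPKM stood under Hba-a2, with 603, 952 and 783 in the wild-type and 736, 630, 791 and 966 in the mutants, whereas Hba-a1 was listed between 0.00367 and 0.0182 FPKM and did not pass the filter. Of the Hba-a2 value, the entry of Hba-a2 nearer to Hba-x held 416 to 761 FPKM and the farther one 122 to 223 FPKM. With 1 differing coding base and overlapping entries, the split between Hba-a1 and Hba-a2 cannot be read as a difference in expression. The wild-type and mutant values of Hba-a2 spanned nearly the same range. Its means were 779 ± 174 and 781 ± 140 FPKM (SD, n = 3 and n = 4), with a log2 fold change by limma of 0.01 (SE 0.18, adjusted p = 0.984), or 0.03 when the library labelled wild-type replicate 3 was left out (adjusted p = 0.961).

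Hbb-b1 was the member chosen for its rise. Its FPKM was 544, 777 and 734 in the wild-type and 1574, 1724, 1519 and 1900 in the mutants, and the lowest mutant value was 1.95 times the highest wild-type value. Such groups without overlap, which the choice of Hbb-b1 fixed here, were found for 7.3% of all genes tested. The means were 685 ± 124 and 1679 ± 171 FPKM (SD, n = 3 and n = 4), a log2 fold change of 1.3 (SE 0.14). It was between 1.15 and 1.4 when any 1 library was left out, with 1.36 without the library labelled wild-type replicate 3. That these values are positive was also fixed by the choice of Hbb-b1.

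The Hbb-bs entry, at the same locus, did not follow this pattern. Its FPKM was 796, 2436 and 469 in the wild-type and 112, 1084, 706 and 1301 in the mutants, the widest spread of the globins shown. The lowest value was that of mutant replicate 1 and the highest that of wild-type replicate 2. Summed over both entries, the locus had 1339, 3213 and 1204 FPKM in the wild-type and 1686, 2809, 2226 and 3201 FPKM in the mutants. On this sum the groups overlapped, since wild-type replicate 2 lay above all mutants. The log2 fold change fell from 1.3 for the Hbb-b1 entry to 0.48 for the sum, whose means were 1919 ± 1123 and 2480 ± 664 FPKM (SD, n = 3 and n = 4).

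The division of the summed value between the entries also differed among the libraries. Hbb-b1 took 40.6%, 24.2% and 61% of the summed value in the wild-type and 93.3%, 61.4%, 68.3% and 59.4% in the mutants. Mutant replicate 4 lay below the library labelled wild-type replicate 3, and the other mutants lay above every wild-type library. No test is given for these shares or for the sum, since both hold the value by which Hbb-b1 was chosen. How the reads were divided was not tested.

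**Figure D1:**
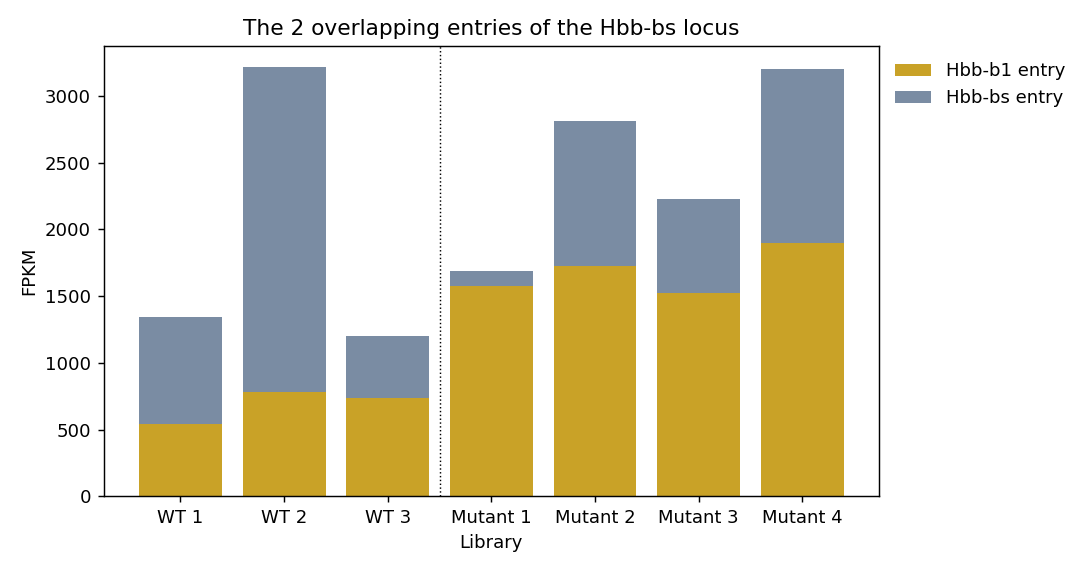
Stacked bars of FPKM for the Hbb-b1 and Hbb-bs entries in each library (wild-type left of the dotted line, mutant right). The Hbb-b1 part is larger in every mutant (1519 to 1900) than in every wild-type library (544 to 777), but the full bars overlap, with 3213 in wild-type replicate 2 and 1686 in mutant replicate 1.

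Hbb-bt, the neighboring adult beta gene, had 492, 1089 and 559 FPKM in the wild-type and 188, 699, 840 and 1101 FPKM in the mutants. Mutant replicate 1 was the lowest library for Hbb-bt as for Hbb-bs, and the groups overlapped. The sum of the 3 adult beta entries was 1831, 4302 and 1762 FPKM in the wild-type and 1874, 3508, 3066 and 4302 FPKM in the mutants. Mutant testes thus spanned 1874 to 4302 FPKM and wild-type testes 1762 to 4302 FPKM. The log2 ratio of Hbb-bs to Hbb-bt ranged from -0.74 in mutant replicate 1 to 1.16 in wild-type replicate 2. The Hbb-bs entry covers the bases of the Hbb-b1 entry, and Hbb-bt is nearly identical to Hbb-bs in coding sequence. The differences of Hbb-bs and Hbb-bt (log2 fold changes of -0.74 and -0.18, and of -1.27 and -0.31 without the library labelled wild-type replicate 3) are therefore given without a test.

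**Figure D2:**
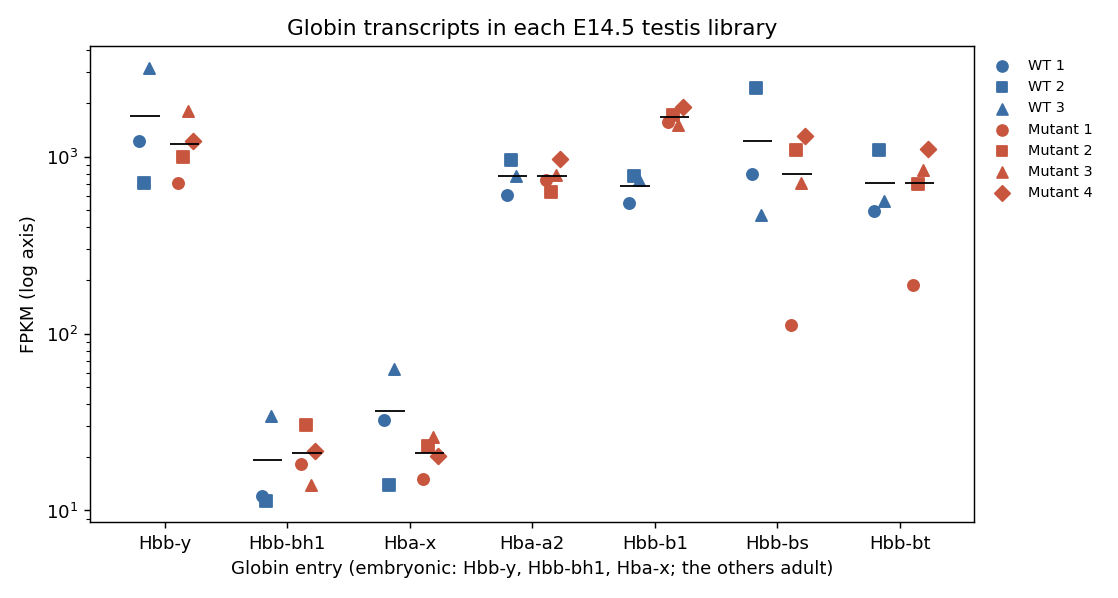
FPKM on a log axis of 7 globin entries in the 3 wild-type (blue) and 4 mutant (red) libraries, with a marker shape for each replicate and a black line at each group mean. Only for Hbb-b1 among these entries do the mutant values (1519 to 1900) not overlap the wild-type values (544 to 777), and the library labelled wild-type replicate 3 is highest for Hbb-y, Hbb-bh1 and Hba-x.

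The other genes of the clusters were near the floor of the table. Hbb-bh2, a minor beta-type gene, was listed at 0 in 5 libraries and reached at most 0.102 FPKM. The theta-type genes Hbq1a and Hbq1b reached at most 0.575 and 1.05 FPKM. Of globins made by other cells, myoglobin (Mb), the oxygen store of muscle, reached 0.9 FPKM and neuroglobin (Ngb) 0.539 FPKM. Cytoglobin (Cygb), found in fibroblast-like cells, had 11.2, 9.53 and 9.76 FPKM in the wild-type and 12.4, 12.7, 11.3 and 11.2 FPKM in the mutants (log2 fold change 0.22, SE 0.08, adjusted p = 0.247 from limma).

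The share of embryonic chains is given for each library and is not read as a share of primitive red cells. Among alpha chains, Hba-x made up 5.1%, 1.43% and 7.42% of the summed FPKM in the wild-type and 2%, 3.54%, 3.19% and 2.07% in the mutants. All mutants lay between the wild-type values. As log2 of Hba-x over the adult alpha chains, the group means were -4.65 ± 1.29 and -5.22 ± 0.43 (SD, n = 3 and n = 4), a difference of -0.56 (two-sided exact permutation test, p = 0.429). This moved to -0.06 with the library labelled wild-type replicate 3 left out (exact permutation p = 0.867) and to -1.29 with wild-type replicate 2 left out (exact permutation p = 0.0667, the smallest value that 2 against 4 libraries allow). Exact tests were run on 11 sums and ratios of globins in all, several of which restate one another. Some of the 11 hold Hbb-bs or Hbb-bt, and these count in the adjustment only, with no p-value of their own given. Adjusted over these 11 by the Benjamini-Hochberg method, this ratio and that of Hbb-y to Hbb-bh1 both had p = 0.718, the smallest of the family by exact permutation. Over 7 libraries the exact test cannot go below 0.0286.

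Among beta chains the embryonic share depended on which adult entries were counted. With Hbb-b1 as the only adult beta entry, as the member list has it, Hbb-y and Hbb-bh1 made up 69.5%, 48% and 81.4% in the wild-type and 31.6%, 37.2%, 54.6% and 39.5% in the mutants. Only mutant replicate 3 then lay above the lowest wild-type library. With Hbb-bs and Hbb-bt added, the shares were 40.3%, 14.3% and 64.6% in the wild-type and 27.9%, 22.6%, 37.3% and 22.4% in the mutants. On that measure every mutant lay between wild-type replicates 1 and 2.

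The mean log2 ratio of embryonic to adult beta chains was lower by 1.62 in the mutant libraries with Hbb-b1 alone and by 0.66 with all 3 adult entries, but higher by 0.18 with Hbb-bs and Hbb-bt alone. The first of these was between -2.21 and -1.09 when any 1 library was left out, with -1.09 without the library labelled wild-type replicate 3. The second turned to 0.15 without that library, and the third, which went to 1.12 without it, turned to -0.86 without wild-type replicate 2 and to -0.27 without mutant replicate 1. No test is given for these, since they contain Hbb-b1, Hbb-bs or Hbb-bt. With no adult entry in the sum, embryonic beta FPKM alone was 1238, 718 and 3222 in the wild-type and 726, 1022, 1826 and 1243 in the mutants (two-sided exact permutation test, p = 0.629).

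**Figure D3:**
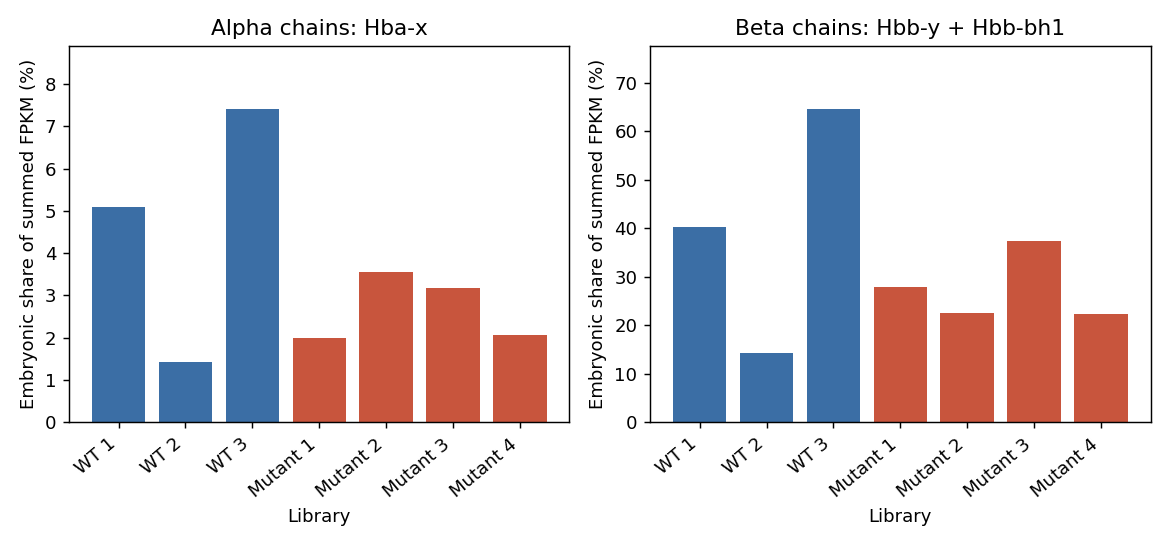
Embryonic share of the summed FPKM (percent) in each library, for alpha chains (Hba-x of Hba-x, Hba-a1 and Hba-a2, left) and for beta chains (Hbb-y and Hbb-bh1 of all 5 beta entries, right), with wild-type bars in blue and mutant bars in red. The wild-type libraries span 1.43% to 7.42% and 14.3% to 64.6%, and all mutant bars lie within these ranges.

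Summed over 8 entries (the 6 members found, Hbb-bs and Hbb-bt), globin FPKM was 3705, 5986 and 5830 in the wild-type and 3351, 5183, 5709 and 6532 in the mutants. The means of 5174 ± 1275 and 5194 ± 1348 (SD, n = 3 and n = 4) differed by far less than the spread within a group. Beta chains summed to 4.83, 5.2 and 5.9 times the alpha chains in the wild-type and 3.46, 6.93, 5.99 and 5.62 times in the mutants. FPKM ratios of this kind also carry how well each transcript was recovered, so they are not protein ratios.

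Other red cell genes were compared because they are independent of the entry used for the adult beta chain. Of 58 genes in 4 erythroid lists, 57 were in the table and 53 passed the filter. By limma, 0 passed the adjusted threshold of 0.05, and 2 (Abcb10 and Ldb1) had an unadjusted p under 0.05, against 17% of all genes. The median log2 fold change of the 53 genes was 0.09, beside 0.01 over all genes, with 34 genes higher and 19 lower. The lists were written with earlier results of these data known. Without the library labelled wild-type replicate 3, where 5.15% of all genes were called, limma called no erythroid gene.

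Of the 16 membrane genes, all passed the filter and none was called. Slc4a1, the band 3 anion exchanger, had 5.98, 16.2 and 8.5 FPKM in the wild-type and 9.08, 10.7, 7.06 and 14 FPKM in the mutants. It was highest in wild-type replicate 2 and mutant replicate 4 and lowest in wild-type replicate 1. Epb4.2 (protein 4.2), which links band 3 to the membrane skeleton, and Rhd were also highest in wild-type replicate 2 or mutant replicate 4, and 13 of the 16 genes had their highest value in one of these libraries. The log2 fold changes were 0.07 for Slc4a1, 0.1 for Epb4.2, 0.09 for Rhd and -0.02 for Epb4.1 (protein 4.1, also made outside red cells), with adjusted p between 0.911 and 0.95 from limma.

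Of the 14 genes of heme synthesis and iron uptake, none was called. Alas2, the erythroid enzyme that starts heme synthesis, had 30.7, 65.2 and 33 FPKM in the wild-type and 47.2, 67.8, 48.2 and 67.3 FPKM in the mutants. Wild-type replicate 2 lay with the highest mutants and the other wild-type libraries below all mutants. By limma its log2 fold change was 0.48 (SE 0.26, adjusted p = 0.38), with 0.34 without the library labelled wild-type replicate 3 (adjusted p = 0.536) and 0.82 without wild-type replicate 2 (adjusted p = 0.125). Abcb10, a mitochondrial transporter of erythroid cells, had 21.9, 26.3 and 23.4 FPKM in the wild-type and 29, 28.3, 27.3 and 27.6 FPKM in the mutants (log2 fold change 0.23, SE 0.07, adjusted p = 0.201 from limma). It was the only gene of the 4 lists whose mutant values all lay above the wild-type values, beside 7.3% of all genes. Urod, a heme synthesis enzyme of all cells, and Tfrc, the transferrin receptor, had log2 fold changes of 0.17 and -0.15 (adjusted p = 0.476 and 0.603 from limma).

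Of the 13 transcription factors of red cells, 11 passed the filter and none was called. Gata1, the factor that directs erythroid genes, had 0.48, 1.6 and 2.03 FPKM in the wild-type and 1.26, 1.3, 0.621 and 4.16 FPKM in the mutants. Klf1, which activates the adult beta gene, had 1.18, 3.38 and 3.06 FPKM in the wild-type and 1.81, 2.36, 1.45 and 5.28 FPKM in the mutants. Mutant replicate 4 was the highest library for both. Bcl11a and Sox6, which silence embryonic globin genes, and Myb, a factor of definitive progenitors, had log2 fold changes of -0.21, -0.05 and 0.08 (adjusted p between 0.462 and 0.853 from limma), and Tal1 one of -0.02. Ldb1, a cofactor that loops the locus control region to globin genes and is made by most cells, had 40.7, 38.7 and 40.3 FPKM in the wild-type and 38.4, 37.2, 33.7 and 33.9 FPKM in the mutants (log2 fold change -0.16, SE 0.07, adjusted p = 0.285 from limma). Lmo2 and Nfe2, the other factors with the highest means, had log2 fold changes of 0.1 and 0.17. Of the other erythroid genes, Prdx2, an antioxidant enzyme, Bnip3l, which acts in the loss of mitochondria, and Blvrb, a biliverdin reductase, had log2 fold changes of 0.13, -0.08 and 0.22 (adjusted p between 0.499 and 0.627 from limma), and none of the 12 tested was called.

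Hba-a2 and the red cell genes Alas2 and Slc4a1 lay closer to one another over the libraries than Hbb-y did to any of them. The SD of the log2 ratio over the 7 libraries was 0.37 between Hba-a2 and Slc4a1, 0.42 between Hba-a2 and Alas2, and 0.3 between Alas2 and Slc4a1. Between Hbb-y and these genes it was 0.83 for Hba-a2, 1.11 for Alas2 and 1.1 for Slc4a1. Taken entry by entry, the other chains did not divide in this way into embryonic and adult. Hbb-bh1 stood at 0.71 from Hba-a2 and 0.78 from Alas2 and from Slc4a1. Hbb-b1 stood at 0.71 from Hba-a2, 0.52 from Alas2 and 0.74 from Slc4a1, and Hbb-bs at 1.33, 1.26 and 1.23. These 2 entries are values for 1 locus, and their sum lay with the adult alpha and red cell genes. It stood at 0.5 from Hba-a2, 0.18 from Alas2 and 0.37 from Slc4a1, but at 1.19 from Hbb-y and 1.22 from Hba-x. Hbb-bs was farthest from Hbb-b1 of the pairs printed here, at 1.68.

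**Figure D4:**
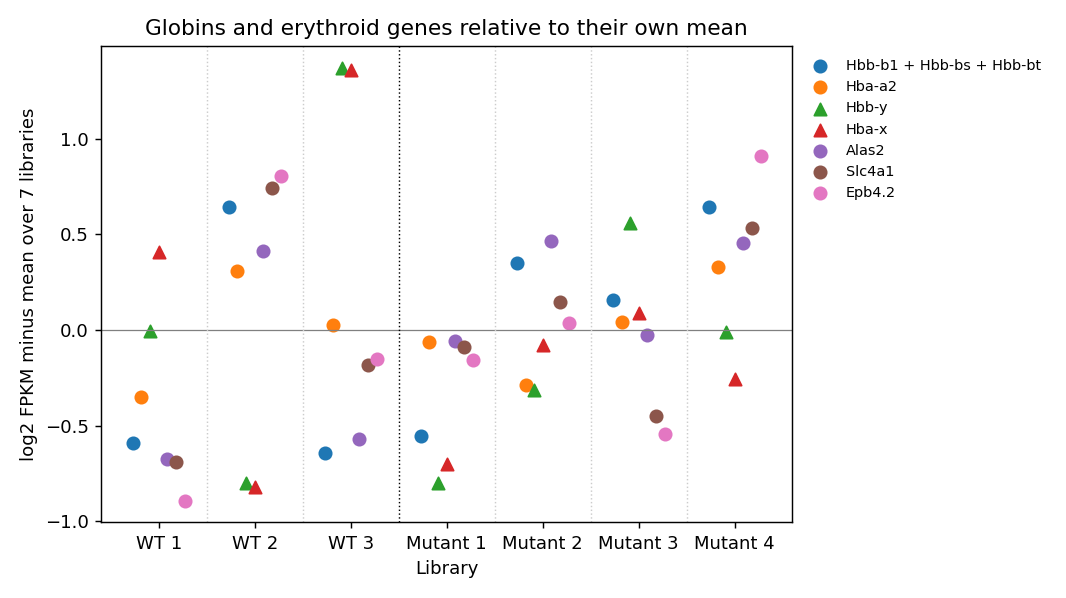
log2 FPKM minus the gene's mean over the 7 libraries, for adult globins and red cell genes (circles) and embryonic globins (triangles) in each library (wild-type left of the black dotted line). Hbb-y and Hba-x stand together at the bottom in wild-type replicate 2 and at the top in the library labelled wild-type replicate 3, where the summed adult beta entries, Alas2 and Slc4a1 lie the other way.

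The 5 genes with a pattern most like that of Hbb-b1, by the smallest SD of the log2 ratio over the 7 libraries among 13935 genes above 0 in every library, were Lin7b (SD 0.25), Tmem52 (0.26), 1500015O10Rik (0.27), Gm13483 (0.31) and Fam222a (0.32). The median over all these genes was 0.74. Their levels were low, between 0.601 FPKM for Fam222a in wild-type replicate 1 and 6.96 FPKM for 1500015O10Rik in mutant replicate 1. The members were left out of this ranking, and no other globin and no gene of the erythroid lists was among these 5. Hbb-b1 itself had an SD of 0.72 on the log2 scale, and in all 5 genes the mutant values lay above the wild-type values, which follows from their choice by likeness to Hbb-b1.

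Markers of other cells are given beside these values. Summed FPKM of 10 endothelial genes, a sign of vessels, was 165 to 206 in wild-type and 184 to 198 in mutant libraries, and that of 10 macrophage genes was 50.6 to 86.9 and 69.3 to 112. Platelet genes summed to 27.1 to 30 and 16.9 to 28 and neutrophil genes to 102 to 175 and 132 to 569, and no gene of these lists was called by limma at an adjusted p under 0.05. Genes of fetal liver hepatocytes varied most: Afp, made by yolk sac and fetal liver, had 10.9, 47.5 and 2.38 FPKM in the wild-type and 73.6, 5.27, 2.08 and 11 FPKM in the mutants. Wild-type replicate 2 and mutant replicate 1, the highest libraries for Afp, were the lowest for Hbb-y. No marker of these lists was at 0 in every library. The defining markers of testis cells were present, with germ cell genes summing to 582 to 1368 FPKM in wild-type and 475 to 642 FPKM in mutant libraries, Sertoli cell genes to 982 to 1233 and 1188 to 1374, and fetal Leydig cell genes to 1602 to 2667 and 2507 to 3083. The part of these cells in the globin values was not tested.

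Promoters of embryonic and adult globin genes are shown as sequence. Whether they bear on the variation among libraries was not tested. RefSeq (GRCm38.p6) gave promoters for 4 of the 7 members (Hbb-y, Hba-x, Hba-a1, Hba-a2) and for Hbb-bs and Hbb-bt. Those of Hba-a1 and Hbb-bt are not printed. The 120 bases before the start are printed, with 3 motifs of globin promoters in capitals: CACCC, the box bound by Klf1-type factors, CCAAT, and TATAA, each searched on both strands. The windows lie at chr7:103827929-103828048 for Hbb-bs and chr7:103853208-103853327 for Hbb-y on the minus strand, and at chr11:32296372-32296491 for Hba-a2 and chr11:32276480-32276599 for Hba-x on the plus strand.
Hbb-bs: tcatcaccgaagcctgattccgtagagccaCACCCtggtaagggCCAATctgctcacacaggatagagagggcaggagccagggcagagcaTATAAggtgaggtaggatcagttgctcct
Hbb-y: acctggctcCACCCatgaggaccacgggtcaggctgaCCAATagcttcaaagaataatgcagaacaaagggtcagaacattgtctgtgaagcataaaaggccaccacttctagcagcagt
Hba-a2: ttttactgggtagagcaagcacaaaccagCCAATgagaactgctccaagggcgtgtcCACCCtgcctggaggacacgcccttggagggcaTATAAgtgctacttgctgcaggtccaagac
Hba-x: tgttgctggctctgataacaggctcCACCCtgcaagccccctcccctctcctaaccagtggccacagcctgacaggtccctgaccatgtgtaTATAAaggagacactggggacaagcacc

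Each of these windows held CACCC, with its first base 90 bases before the start in Hbb-bs, 111 in Hbb-y, 63 in Hba-a2 and 95 in Hba-x. CCAAT was in the windows of Hbb-bs, Hbb-y and Hba-a2 but not in that of Hba-x, and TATAA in those of Hbb-bs, Hba-a2 and Hba-x but not in that of Hbb-y. Over 32851 promoters of the same length, 31.7% held CACCC, 21.3% CCAAT, 11.8% TATAA and 0.688% all 3. Hbb-y and Hba-x shared only CACCC of these motifs as exact matches, and the windows of Hbb-bs and Hba-a2 held it too. Variants of a motif, such as the cataaaa in the Hbb-y window, were not counted. The Hba-a1 promoter shared a run of 297 of 300 bases with that of Hba-a2.

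Repeat loci inside the globin clusters gave a separate measure from uniquely mapped reads. From Hbb-b1 to Hbb-y (chr7:103826532-103853207) 19 LINE, SINE and LTR loci were listed, and 9 had any read. The summed reads were 3, 1 and 17 in the wild-type and 2, 2, 4 and 3 in the mutants. From Hba-x to Hba-a2 (chr11:32276600-32297310) 35 loci were listed, 14 had any read, and the summed reads were 4, 9 and 3 in the wild-type and 3, 5, 8 and 7 in the mutants. Scaled to the repeat reads of each library, the groups did not differ beyond their spread (two-sided exact permutation test, p = 0.657 for the beta and p = 0.629 for the alpha cluster).

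Of the 464695 loci that averaged 1 read or more, edgeR's quasi-likelihood test called 375 (0.0807%) at an adjusted p under 0.1, while unadjusted p-values under 0.05 were found for 4.74%. Only 2 loci of the clusters were tested, and neither was called. An Lx9 element (chr7:103851035-103851377), 377 bases from the 3' end of Hbb-y, held 13 of its 16 reads in the library labelled wild-type replicate 3, the library in which Hbb-y was highest (adjusted p = 0.725 from edgeR). An L1MB4 element (chr11:32285360-32285708), between the adult alpha loci, had 3 and 4 reads in wild-type replicates 1 and 2 and none elsewhere (adjusted p = 0.775 from edgeR). Both had an unadjusted p under 0.05, and none of the loci of the clusters was tested by DESeq2 after its own filter.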

How the data were processed

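The data were RNA-Seq libraries of whole E14.5 testes, 3 labelled wild-type and 4 mutant, grouped by the sample labels. The authors removed ribosomal RNA, primed at random without strand marking, aligned reads to mm10 with TopHat2 2.0.12 (reads with several hits kept) and had Cuffquant and Cuffnorm turn them into FPKM over RefSeq models. The deposited FPKM values carry that library scaling, and their depth in fragments is unknown. The authors also counted uniquely mapped reads on RepeatMasker elements with HTSeq-count, and the deposited counts are raw, with 3454317 to 4670830 reads per library. Uniquely mapped reads and FPKM with shared hits treat near-identical genes differently.

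Entries were summed by symbol. Genes averaging 0.5 FPKM or more were tested on log2(FPKM + 0.5), a scale that understates changes of low genes, with limma 3.58.1 (trend, two-sided) in R 4.3.3 and Benjamini-Hochberg adjustment (threshold 0.05). Repeat loci averaging 1 read or more were tested with edgeR 4.0.16 (quasi-likelihood, TMM, threshold 0.1), and DESeq2 1.42.0 was an alternative. Ratios were compared with exact permutation tests over all 35 divisions of the libraries, in Python 3.11.15. The limma and edgeR fits were tested on simulated data. Members, lists and tests were chosen with earlier results of these data known. Named are all members, other genes of the clusters, globins of other cells, the highest genes of each erythroid list with preset factors and membrane genes, the 5 genes most like Hbb-b1, Glis3, Ddx4, Pou5f1, Nanos2 and Insl3 (named after seeing their values), and markers by their sums. Alternatives were quantile normalization, pseudocounts of 0.1 and 1, filtering at 2 FPKM or not at all, median centring, no trend, a replicate block, leaving out each library, other scalings and windows for repeats and, added after seeing the data, rows not summed by symbol and Hbb-b1 summed with Hbb-bs. Ahsp, Hbb-bh0 and Hbb-bh3 were not analysed here, and single values of some listed genes are not reported here.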

Additional observations from a re-analysis of the deposited data

Results flagged for a closer look

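Among the 4 mutant libraries, 2 of 50 quantities had 1 library far from the others by Dixon's criterion, which chance alone meets in about 1 in 20 groups. The summed FPKM of the adult members was 2310, 2354, 2310 and 2866 in mutant replicates 1 to 4, and the gap of mutant replicate 4 was 0.92 of the range. This sum contains Hbb-b1. The summed FPKM of 11 fetal liver hepatocyte genes was 189, 26.3, 20.5 and 40.1, and the gap of mutant replicate 1 was 0.884 of the range. Mutant replicate 1 was also the mutant library with the lowest Hbb-y, Hba-x, Hbb-bs and Hbb-bt, and any link between these values was not tested.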

How the results depend on the processing

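The Hbb-b1 log2 fold change was 1.18 to 1.32 under every alternative that used all libraries and this entry, 1.15 to 1.4 when 1 library was left out, and 0.48 once Hbb-bs was summed with it, an alternative added after seeing the data. Its sign with 1 library left out was fixed by the choice of Hbb-b1. The number of genes called over the whole table was 1; it became 4 without the filter and 3 with quantile normalization, and leaving out 1 library gave 1 to 722, with 722 without the library labelled wild-type replicate 3, 5 without wild-type replicate 2, and 2 without wild-type replicate 1 or mutant replicate 3. No erythroid gene and no repeat locus of the clusters was called under any alternative in which it was tested; no cluster locus was tested with a mean of at least 10 reads or by DESeq2.

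Signs changed for small differences, and the cause was not tested. The adjusted p from limma was over 0.5 for each gene whose sign changed, leaving aside Hbb-bs and Hbb-bt, which are given without a test. With quantile normalization Hba-a2 had a log2 fold change of -0.19. Leaving out 1 library gave -0.82 to 0.26 for Hbb-y, -0.010 to 0.77 for Hbb-bh1, -0.16 to 0.17 for Hba-a2, -1.27 to 0.044 for Hbb-bs, -0.48 to 0.37 for Hbb-bt, -0.23 to 0.45 for Slc4a1 and -0.22 to 0.47 for Epb4.2, and for the summed repeat CPM of the beta cluster -1.49 to 0.34, the last without the library labelled wild-type replicate 3. The sign turned for Hbb-y without the library labelled wild-type replicate 3, for Hbb-bh1 without wild-type replicate 2, for Hbb-bs without mutant replicate 1 and for Hbb-bt without either of these last 2 libraries; for Hba-a2, Slc4a1 and Epb4.2 it turned without wild-type replicate 1 or mutant replicate 4, and for Hba-a2 also without mutant replicate 3. The alpha ratio and the Hbb-y to Hbb-bh1 ratio kept their sign in all alternatives run. The beta ratio with Hbb-b1 as adult entry did too, but it holds the value by which Hbb-b1 was chosen. With other adult entries, added after seeing the data, leaving out 1 library gave beta ratios of -1.57 to 0.15 for all 3 entries and -0.86 to 1.12 for Hbb-bs and Hbb-bt.

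The sample labels link libraries of the same replicate number by that number only. The deviations of these pairs correlated at 0.19, -0.17 and 0.22, and those of differently numbered wild-type and mutant libraries at -0.30 to 0.15. Whether the numbers mark a pairing cannot be decided from so few pairs. Mutant replicate 4 has no wild-type partner, so with a replicate block it adds nothing to a difference, and the fold changes equal those without it. In that fit limma called 0 genes (1730 at an unadjusted p under 0.05), against 1 when mutant replicate 4 was left out with no block, and the log2 fold changes were -0.098 for Hba-a2, -0.088 for Slc4a1 and -0.14 for Epb4.2. The depth behind each FPKM value is unknown, and entries that share bases cannot be separated here. How far near-identical coding sequence mixed the values of separate loci was not tested. Each library is 1 embryo, so p-values measure the spread between 3 and 4 embryos.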
